A study of Mus musculus with 4 samples.

Results

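Genes that act on newly made collagen are described here in mouse fibroblasts that carry an Erbb2 transgene: Lox (NCBI Gene 16948), Loxl1 (16949), Pcolce (18542) and Serpinh1 (12406). They were chosen by symbol, with earlier results of these data known. They are 4 of 8131 genes with a value on at least 3 arrays. The array names 9 probes for them, which are 3 for Lox and 2 for each of the others.

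Collagen chains fold into a triple helix in the endoplasmic reticulum, where the chaperone HSP47, the product of Serpinh1, binds the helix. Outside the cell the propeptides are cut off, and the C-terminal cut by the BMP1 proteinase is enhanced by the protein that Pcolce encodes. Lysyl oxidases, which are copper-dependent enzymes encoded by Lox, Loxl1 and related genes, then oxidise lysine residues, and the products cross-link collagen and elastin into insoluble fibres. Fibroblasts are a main source of these proteins. Lox is also listed under the name rrg in the gene table, from "ras recision gene", since it was isolated from mouse fibroblasts in which RAS transformation had been reverted.

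The study compared an NIH3T3 line transfected with Erbb2, labelled as overexpressing this receptor tyrosine kinase gene, against untransfected NIH3T3 cells with normal Erbb2 expression. NIH3T3 cells are immortal fibroblasts first grown from mouse embryos, and the labels do not say whether the transfected line is 1 clone or which promoter drives the transgene. RNA of both lines was hybridised together on 4 two-colour cDNA arrays, with the transfected line in Cy5 on arrays 1 and 2 and in Cy3 on arrays 3 and 4. The arrays are called technical replicates, so there was 1 biological sample a line. Every SD and p-value below covers the spread between arrays only, and no value covers the spread between cultures. A difference due to Erbb2 and any other difference between the lines cannot be told apart.

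Values are log2 ratios in their likely direction, transfected over untransfected, which is not stated in the labels. The basis is that ratios beyond 15, taken to stand for an empty channel, are all above 0 on arrays 1 and 2 and all below 0 on arrays 3 and 4, so that 1 dye orientation had been turned, and that the transfected line is channel 1 on every array. If the reading were wrong, all signs would turn together. A ratio holds no expression level, so neither the abundance of a gene nor the presence of fibroblast markers could be checked. The median of all gene means was -0.092, and array medians were 0.099, 0.017, -0.17 and -0.20 for arrays 1 to 4. Limma called 0 of 8131 genes (0%) at an adjusted p under 0.05, and 786 genes (9.67%) had an unadjusted p under 0.05. The text therefore counts a gene as at least 2-fold lower or higher when it has 1 sign on every measured array and a mean log2 ratio past 1, which is a size and not a test: 452 genes (5.56%) were lower by this rule and 235 (2.89%) were higher.

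Lox stood far below 0 in the transfected line, and Pcolce was lower by less. Serpinh1 was below 0 on every array with a mean short of 2-fold, and the probes of Loxl1 disagreed. Of the 4 genes, 3 (Lox, Pcolce and Serpinh1) were below 0 on all 4 arrays, where 13% of the 6327 genes measured on 4 arrays were, and 2 (Lox and Pcolce) also had a mean at or below -1, where 4.87% did. The genes were chosen with earlier results of these data known, so the shares are a description and not a test. None of the 4 passed limma's test over all genes. Fewer cells that make a transcript and less of it per cell cannot be told apart in RNA of whole cultures.

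Lox, the founding lysyl oxidase, had log2 ratios of -3.81, -5.72, -5.92 and -5.27 on arrays 1 to 4. All 4 arrays were far below 0, and array 1 was nearest to it. The mean was -5.18 ± 0.95 (SD, n = 4 arrays), a 36.2-fold lower level in the transfected line, and only 2 of the 8131 genes, Bgn and Naprt, had a lower mean. Limma's adjusted p over all genes was 0.23 (unadjusted p = 6.57e-05). The size depends on how the table is read: the mean was -2.31 with all rows as deposited, and Lox no longer had 1 sign on every array, and so lost its 2-fold count, with the offset of the lower rows 1 row higher (-2.44 ± 2.09) or with capped ratios kept (-3.29 ± 6.39). Its probe in the first 6000 rows alone gave -5.25.

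The probes of Lox show what this mean is made of. Probe 1602 had -4.69, -6.04 and -5.03 on arrays 1, 3 and 4 and no value on array 2, a mean of -5.25 ± 0.70. Probe 18433, which lies far away in the table, had -7.12, -5.72, -5.80 and -5.51 on arrays 1 to 4, a mean of -6.04 ± 0.73. Both probes were below -4 wherever they were measured. Probe 20301 gave 1 usable value, 0.38 on array 1, and its readings on arrays 2 and 4 (17.16 and -16.88) are capped ratios with opposite signs. Its single value alone pulls array 1 towards 0: with probes of at least 3 arrays only, a choice made after the data were seen, Lox had a mean of -5.70 ± 0.30 (limma, adjusted p = 0.075, and 0.0609 to 0.655 over all alternatives).

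**Figure D1:**
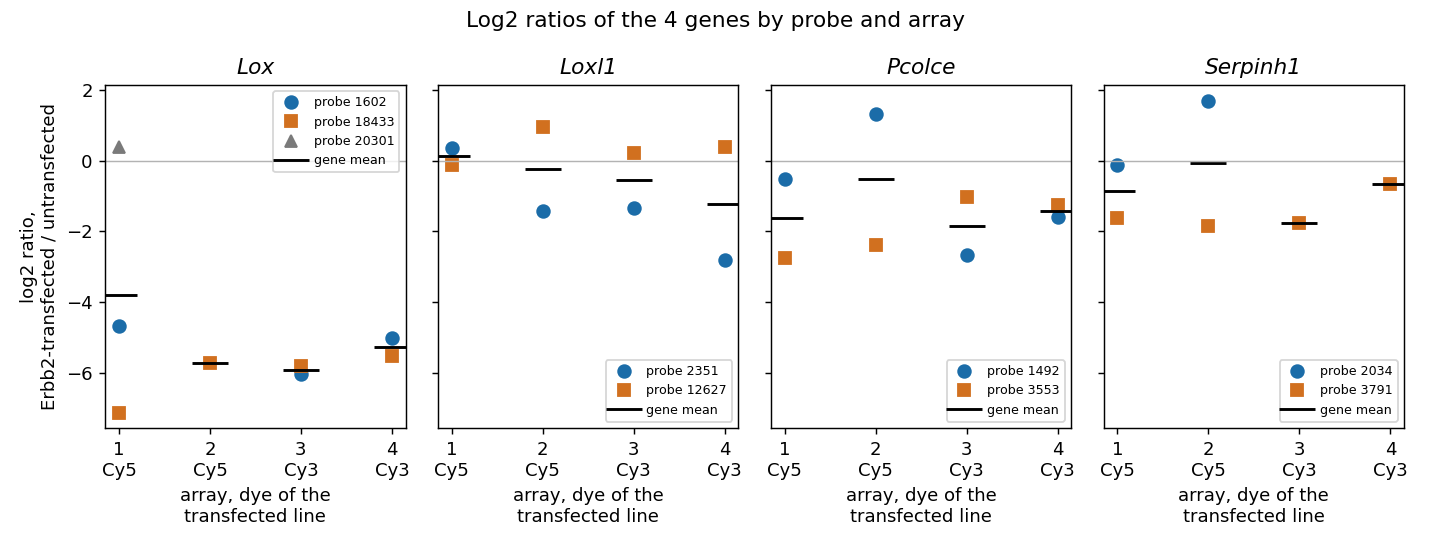
Log2 ratios (Erbb2-transfected over untransfected, vertical axis) of every probe of Lox, Loxl1, Pcolce and Serpinh1 on each of 4 arrays, with the dye of the transfected line under the array number; points are probes and black bars the gene mean on that array. Both well-measured Lox probes lie between -4.69 and -7.12, while the Loxl1 probes fall on opposite sides of 0 on every array.

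The value of probe 18433 rests on how the table is read. In the lower part of the deposited table the rows of arrays 2 to 4 lie a few rows off those of array 1, so from row 18301 on arrays 2 to 4 were read 4 rows higher. Read in its own row, probe 18433 had -2.64, 0.13 and -0.37 on arrays 2 to 4. Read 4 rows higher it had the values near -5.7 given above, and none of the other offsets from 0 to 7 rows put more than 1 of arrays 2 to 4 below -2. In the 1001 rows around this probe the mean Spearman correlation of array 1 with arrays 2 to 4 was 0.113 at an offset of 4 rows and -0.0003 without one. These correlations run across probes, which are not independent replicates, and all are weak. The offsets were chosen with these data known, so the correlations describe that choice and are no independent check of it. Around the Loxl1 probe 12627 the offset with the highest correlation was 3 rows (0.085, against -0.042 without one), and around each of the 6 probes in the first 6000 rows it was 0 rows (0.083 to 0.181).

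**Figure D2:**
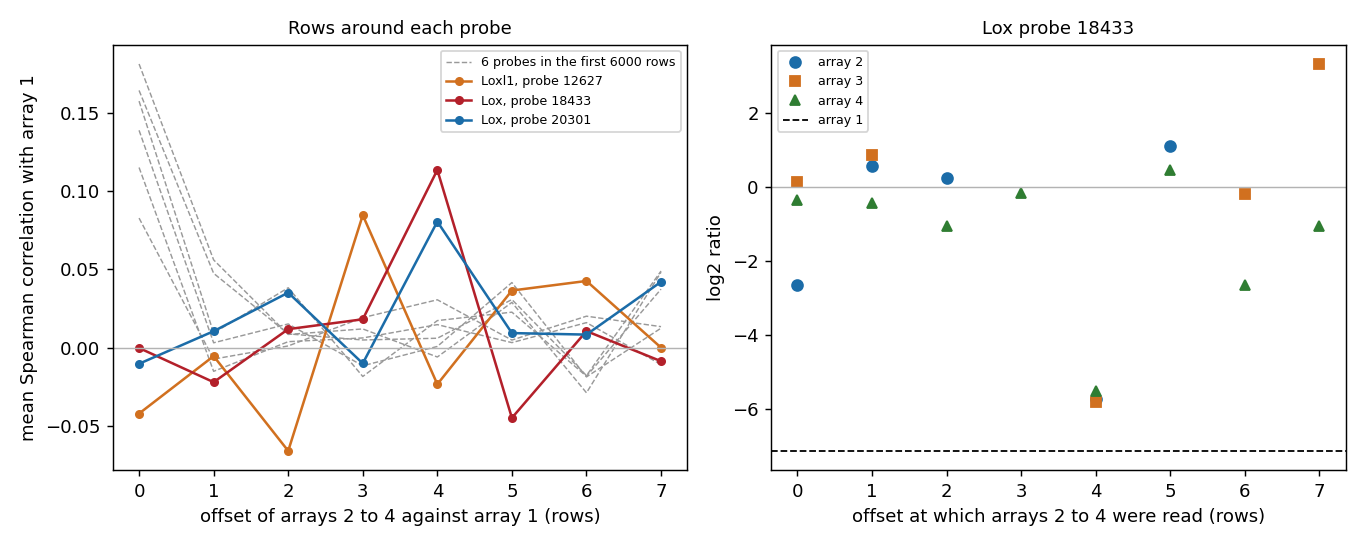
Left, mean Spearman correlation of array 1 with arrays 2 to 4 in the rows around each probe of the 4 genes (vertical axis) against the number of rows by which arrays 2 to 4 were moved (horizontal axis); right, log2 ratio of Lox probe 18433 on arrays 2 to 4 at each offset, with array 1 as a dashed line. The rows around probe 18433 agree best at 4 rows (0.113), the offset at which all 3 arrays read between -5.80 and -5.51. That offset was chosen with these data known.

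Loxl1, a lysyl oxidase known for its role in elastic fibres, had 0.12, -0.23, -0.56 and -1.22 on arrays 1 to 4. The arrays lay on both sides of 0. The mean was -0.47 ± 0.57 (n = 4), with an SD above the mean (limma, adjusted p = 0.65). Probe 2351 had 0.35, -1.42, -1.34 and -2.82, a mean of -1.30 ± 1.30, whereas probe 12627 had -0.11, 0.95, 0.22 and 0.38, a mean of 0.36 ± 0.45. The probes had opposite signs on every array, so no direction can be given for Loxl1.

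Lox was lower than Loxl1 on 4 of 4 arrays, by -4.71 ± 0.83 on the log2 scale. Against Pcolce the difference was -3.82 ± 1.24 and against Serpinh1 -4.34 ± 1.12, each again with Lox lower on 4 of 4 arrays. An exact two-sided sign-flip permutation test gave p = 0.125 for each of the 3 pairs (adjusted p = 0.125), the smallest that 4 arrays allow. With 1 sign on all 4 arrays this test gives 0.125 whatever the size of a difference, so it decides nothing here. The differences are several times their SD, which covers technical arrays only. They were formed with earlier results of these data known and are a description.

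Pcolce, the enhancer of C-propeptide cleavage, had -1.63, -0.53, -1.84 and -1.43 on arrays 1 to 4. Every array was below 0, and array 2 was nearest to it. The mean was -1.36 ± 0.58 (n = 4), 2.56-fold lower in the transfected line (limma, adjusted p = 0.46, unadjusted p = 0.0112). Probe 3553 had -2.76, -2.38, -1.02 and -1.26, below 0 throughout, with a mean of -1.86 ± 0.84. Probe 1492 had -0.51, 1.32, -2.67 and -1.59, and its mean of -0.86 ± 1.70 had an SD above its size, so that this probe alone would not count as 2-fold lower. On array 2 the probes had opposite signs, and the value of the gene below 0 there rests on probe 3553.

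Serpinh1, the collagen chaperone gene, had -0.86, -0.074, -1.76 and -0.67 on arrays 1 to 4. All were below 0, array 2 only just. The mean was -0.84 ± 0.70 (n = 4), 1.79-fold lower (limma, adjusted p = 0.53, unadjusted p = 0.0676). Probe 3791 had -1.61, -1.85, -1.76 and -0.67, a mean of -1.47 ± 0.54, while probe 2034 was measured on arrays 1 and 2 only, at -0.12 and 1.70. Without probe 2034, again a choice made after the data were seen, Serpinh1 thus stood at -1.47 (limma, adjusted p = 0.436, and 0.306 to 0.944 over all alternatives), past the 2-fold size that its gene mean missed. With all probes the mean was -0.54 without array 3, and -1.10 without array 2, which is also past 2-fold.

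All 4 genes had a lower mean with the transfected line in Cy3 than in Cy5. The means were -5.59 in Cy3 and -4.76 in Cy5 for Lox, and -1.64 in Cy3 and -1.08 in Cy5 for Pcolce. For Serpinh1 they were -1.21 in Cy3 and -0.47 in Cy5, and for Loxl1 -0.89 in Cy3 and -0.056 in Cy5. The array medians given above were lower on the Cy3 arrays as well. After each array was centred on its median, the means were -5.11 for Lox, -1.29 for Pcolce, -0.78 for Serpinh1 and -0.41 for Loxl1.

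**Figure D3:**
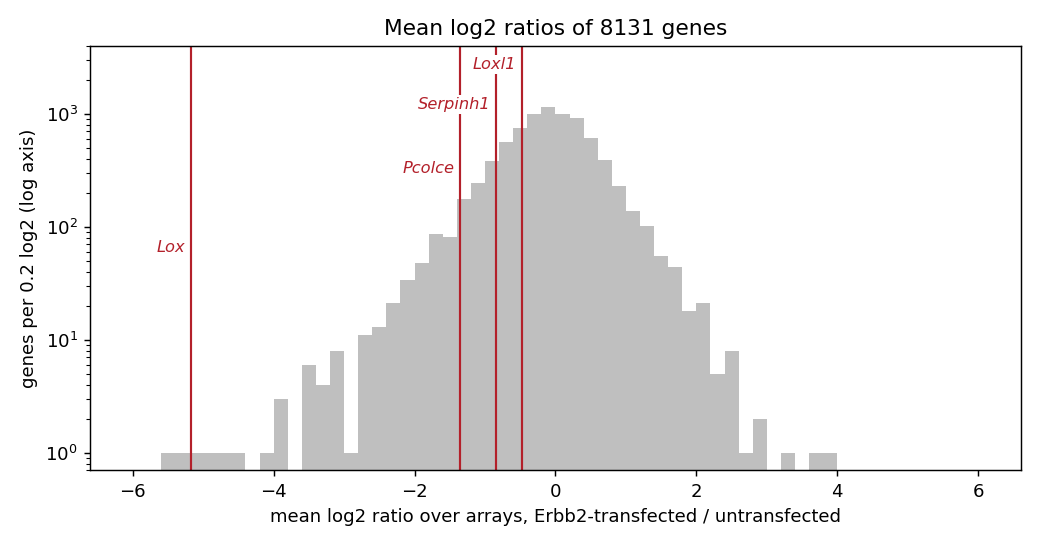
Number of genes (vertical axis, log scale) by mean log2 ratio over the arrays (horizontal axis, Erbb2-transfected over untransfected) for 8131 genes, with red lines at the 4 genes. Lox at -5.18 lies in the far lower tail, Pcolce at -1.36 is the 349th lowest of the 8131 means, and Serpinh1 and Loxl1 lie at -0.84 and -0.47.

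Promoter windows of 300 bases, from 250 before to 50 after the gene start, were taken from RefSeq (build GRCm38.p6) for the members found in its table, Pcolce and Serpinh1. Of the 4 members only these 2 had a window there. Both genes were below 0 on every array, as was Lox, which had no window. Capitals mark the motif matches.
Pcolce: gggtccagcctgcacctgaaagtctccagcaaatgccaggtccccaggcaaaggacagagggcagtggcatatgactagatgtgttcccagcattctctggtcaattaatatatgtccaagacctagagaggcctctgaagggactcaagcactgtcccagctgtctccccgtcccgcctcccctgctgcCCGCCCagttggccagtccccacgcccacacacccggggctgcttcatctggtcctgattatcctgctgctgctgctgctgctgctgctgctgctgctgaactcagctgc
Serpinh1: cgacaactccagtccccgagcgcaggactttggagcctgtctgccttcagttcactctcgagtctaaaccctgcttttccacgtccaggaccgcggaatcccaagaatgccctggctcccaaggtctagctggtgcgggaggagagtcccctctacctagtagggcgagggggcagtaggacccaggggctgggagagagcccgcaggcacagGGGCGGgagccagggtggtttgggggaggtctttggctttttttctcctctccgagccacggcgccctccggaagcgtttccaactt
The Pcolce window is chr5:137611355-137611654 and the Serpinh1 window chr7:99353190-99353489, both on the minus strand. A total of 6 motifs were searched on both strands, and each window held 1 match, to the GC box GGGCGG. The match begins at position -60 from the gene start in Pcolce, on the opposite strand, and at position -37 in Serpinh1. Of 32851 promoter windows of this length, 35.7% hold GGGCGG, so it is no mark of these genes. The windows of both genes held no match to the CCAAT box, which is in 37.4% of all windows, to the TATA box letters TATAAA (13.6%), or to the AP-1 letters TGANTCA (7.81%). Nor did they hold the heat shock element core GAANNTTC, found in 7.86% of all windows, or its other phase TTCNNGAA, found in 8.52%. The search took exact letters in a single window of 300 bases per gene. Sites with other letters, outside the window or at another gene start would be missed, so no absence of an element from these genes follows.

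Of 53 genes in 4 lists of the same steps (modification, folding and export, propeptide cleavage, cross-linking), 32 were tested, with a median of -0.44 against -0.092 for all genes. Without the 4 genes described above, 3 of 28 (Tgm2, Colgalt2 and P4ha2) were at least 2-fold lower and 0 were higher, with a median of -0.35. By the same rule 5.56% of all 8131 genes were lower and 2.89% higher, shares that belong beside every list count below as well. Limma called 0 of the 32, and the list counts were not tested against these shares.

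In the cross-linking list 8 of 11 genes were tested, with a median of -1.01. Tgm2, which encodes the cross-linking enzyme transglutaminase 2, had -0.80, -1.42, -1.17 and -2.32 on arrays 1 to 4. All 4 arrays were below 0, with a mean of -1.43 ± 0.65 (limma, adjusted p = 0.451, unadjusted p = 0.0104). Loxl2 and Loxl3, which encode further lysyl oxidases, had arrays on either side of 0. Loxl2 had 0.34, -4.94 and -0.88 on arrays 1, 3 and 4, a mean of -1.83 ± 2.77 (n = 3), and Loxl3 had 0.31, 0.26, -0.095 and 1.44, a mean of 0.48 ± 0.67. The copper transporter genes Atp7a, which supplies lysyl oxidases in the secretory pathway, and Slc31a1, the cellular importer, had -0.76 ± 0.71 and -0.33 ± 0.12, both below 0 on every array and both short of 2-fold.

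Of the 15 collagen hydroxylation and glycosylation genes 11 were tested, with a median of -0.17. The galactosyltransferase gene Colgalt2 had -1.21 ± 1.04 and the prolyl 4-hydroxylase subunit gene P4ha2 -1.001 ± 0.53, and these 2 were at least 2-fold lower. The sister subunit gene P4ha1 was just short of that, at -0.55, -1.32, -0.98 and -0.71 on arrays 1 to 4 and a mean of -0.89 ± 0.34. The remaining subunits, P4ha3 (0.34 ± 0.74) and P4hb (-0.51 ± 1.0003), had mixed signs, as did the lysyl hydroxylase genes Plod1 (-0.81 ± 0.80) and Plod3 (0.013 ± 0.33). The prolyl 3-hydroxylase complex genes P3h1 (0.38 ± 0.69), Crtap (-0.047 ± 0.30) and Ppib (-0.17 ± 0.30) had means between -0.17 and 0.38.

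In the folding and export list 10 of 17 genes were tested, including Serpinh1, and 0 were past 2-fold with 1 sign (median -0.39). The nearest with 1 sign was Sec31a, which encodes a coat protein of the vesicles that leave the endoplasmic reticulum, at -0.98 ± 0.24 and below 0 on every array. The collagen export receptor gene Mia3 had -0.41 ± 0.22, and Sec23a, another coat gene, had 0.58 ± 0.67. Creb3l1, a transcription factor gene of the secretory pathway, had -0.40, 0.92, -2.95 and -2.61 on arrays 1 to 4. Its mean of -1.26 ± 1.84 was the lowest of this list, with mixed signs. By dye of the transfected line, Creb3l1 had means of 0.26 in Cy5 and -2.78 in Cy3. Of the propeptide cleavage list 3 of 10 genes were tested. Apart from Pcolce these were the meprin genes Mep1a (0.18 ± 1.07) and Mep1b (0.67 ± 1.79, n = 3), and Bmp1 and Pcolce2 had values on fewer than 3 arrays.

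**Figure D4:**
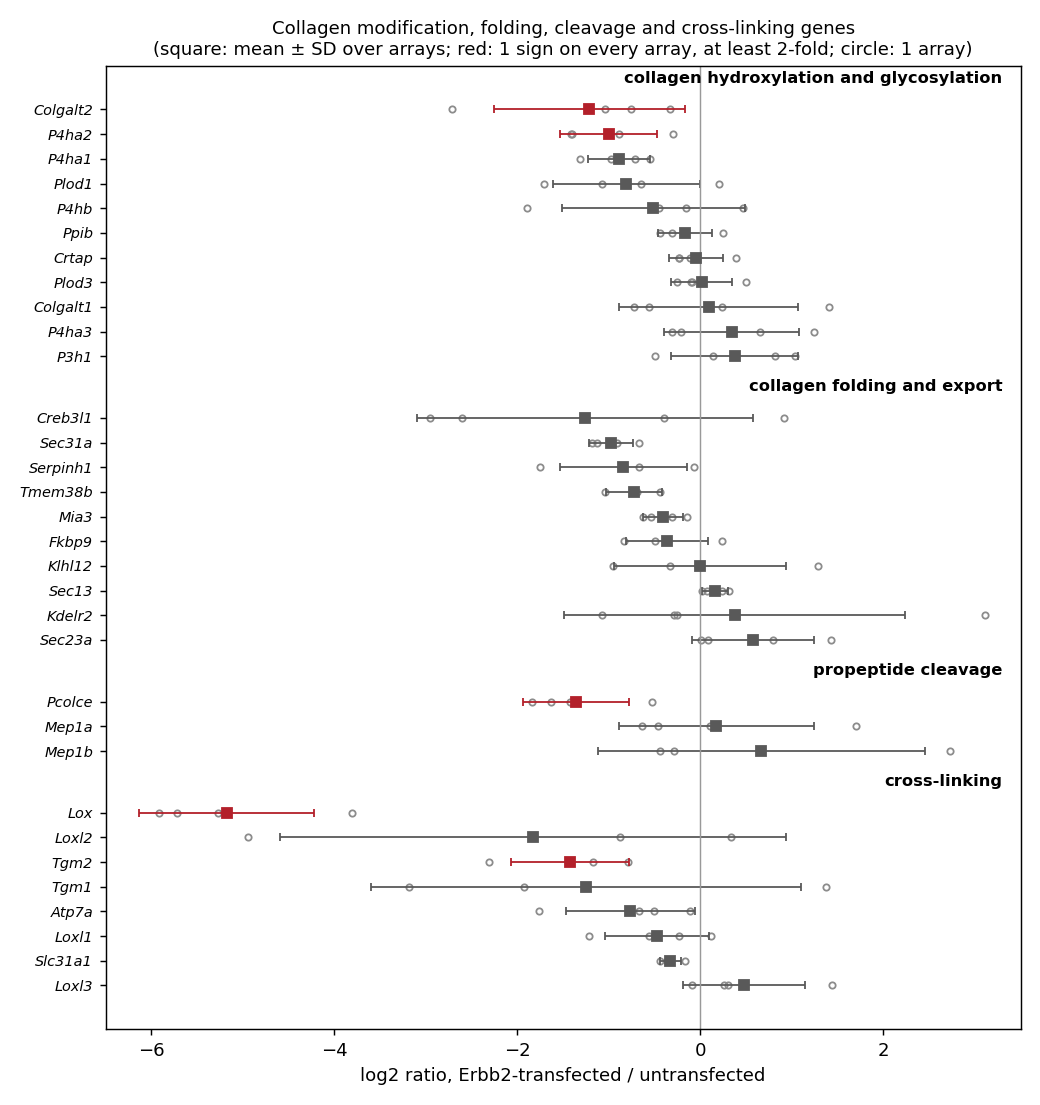
Log2 ratios (Erbb2-transfected over untransfected, horizontal axis) of the 32 tested genes of the 4 lists, ordered by step and mean; squares are means with bars of 1 SD over arrays, circles single arrays, and red marks genes with 1 sign on every array and at least 2-fold. The mean of Lox, -5.18, lies far below that of every other gene shown, and only Tgm2, Pcolce, Colgalt2 and P4ha2 are also red.

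Fibrillar collagen genes, whose products these proteins act on, divided, as did the elastic fibre genes. Of 9 tested fibrillar collagen genes 4 were at least 2-fold lower and 0 higher (median -0.40): the type I chains Col1a1 (-4.91 ± 1.46) and Col1a2 (-3.36 ± 0.69), and the type V chains Col5a2 (-1.64 ± 0.96) and Col5a1 (-1.09 ± 0.99). The type III chain gene Col3a1 had 0.89 ± 1.36, with mixed signs. Of 9 elastic fibre genes 2 were lower, the fibulin genes Fbln5 (-4.50 ± 0.59, n = 3) and Fbln2 (-3.27 ± 0.51), and 1 was higher, Mfap4 (1.81 ± 1.504, n = 3); the list's median was -0.73. Eln, which encodes elastin, the other main substrate of lysyl oxidases, had values on fewer than 3 arrays.

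Genes of collagen-binding matrix proteins gave 3 lower and 0 higher of 9 tested (median -0.90). These were Bgn (-5.48 ± 3.13), Fn1 (-3.89 ± 0.36) and Sparc (-3.14 ± 0.42), while Dcn, the decorin gene, had 0.67 ± 0.64 (n = 3). In the collagen breakdown list 3 of 12 were lower and 0 higher (median -0.015): the inhibitor gene Timp3 (-3.97 ± 1.33) and the metalloproteinase genes Mmp14 (-1.93 ± 1.68) and Mmp2 (-1.01 ± 0.61).

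Serpinh1 is both a heat shock gene and a gene of the endoplasmic reticulum, and those lists differed in their counts. Of 11 heat shock genes 1 was lower, Cryab (-1.95 ± 0.45), and 1 higher, Hspb1 (1.08 ± 0.72), with a median of 0.065. Of 10 endoplasmic reticulum chaperone genes 5 were lower and 0 higher, with a median of -1.16. These were the disulphide isomerase genes Pdia6 (-2.64 ± 0.61) and Pdia4 (-1.54 ± 0.75), Creld2 (-2.40 ± 0.88), the calreticulin gene Calr (-2.23 ± 0.92) and Hspa5 (-1.67 ± 1.03), which encodes the chaperone BiP. Limma called 0 genes of these lists, and the difference between the lists was not tested.

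The genes with the array profile closest to each of the 4, by Euclidean distance of the log2 ratios over 4 arrays among 6326 genes, were looked up as a description. For Lox they were Timp3 (distance 2.61), Rgs2 (2.62) and Fn1 (3.40), none of them close, since few genes lie so low. For Pcolce they were Gadd45b (0.40), Ces2g (0.52) and Cyb5a (0.56). Ldhb (0.33), Calm2 (0.34) and Pdlim2 (0.37) were nearest to Serpinh1, and Ablim3 (0.24), Septin5 (0.29) and Kazald1 (0.29) to Loxl1. Small distances near 0 are common, because most genes lie there.

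Markers of other cell types gave few values. Epithelial markers (4 of 7 tested, median -0.084) had 0 genes at least 2-fold lower or higher, as had endothelial (4 of 6, -0.27) and adipocyte markers (4 of 6, -0.19). Muscle markers (6 of 7, -0.45) had 1 lower gene, Myh1 at -2.67 ± 1.13, and leukocyte markers (2 of 7, -0.70) had 1, Lyz2 at -1.17 ± 0.71. Of 7 tested fibroblast markers (median 0.24) 3 were lower, Col1a1, Col1a2 and Fn1, and 4 were not past 2-fold, among them the vimentin gene Vim at 0.66 ± 0.18, above 0 on every array. Summed over the tested markers the log2 ratios of single arrays ran from -11.6 to -8.62 for fibroblast, -1.76 to 1.09 for epithelial, -2.05 to -0.74 for leukocyte, -4.23 to 3.65 for endothelial, -3.79 to 2.95 for adipocyte and -6.77 to -1.96 for muscle markers. The fibroblast sums were carried by Col1a1, Col1a2 and Fn1, while the means of the other 4 ran from 0.24 to 0.67. Sums grow with the number of markers and leave out missing values, so they cannot be compared between cell types. The part of these markers in the results above was not tested.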

How the data were processed

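The values are log2 ratios of both channels of an array, as deposited by the authors. How spots were read, background-corrected and normalized is not given in the sources used here, and array medians differ from 0. The unit was read from the values. Per the labels, arrays 1 and 2 carry the transfected line in Cy5 and arrays 3 and 4 in Cy3.

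The annotation gave exactly 1 symbol for 14030 of 20355 probes and several for 5, and 6320 stayed unnamed. Gene identifiers matched 13994 of the 14030 to RefSeq (GRCm38.p6), which changed 0 symbols. Rows 1 to 6000 were used as they stand. For rows 8001 to 18000 arrays 2 to 4 were read 3 rows higher, and from row 18301 on 4 rows higher; the other 2300 rows and values beyond 15 either way were dropped. Each gene is the mean of its probes within an array. Genes with at least 3 arrays were fitted with limma 3.58.1 (R 4.3.3; lmFit, eBayes, a mean and a dye term) and adjusted by Benjamini-Hochberg over all genes. Fits were run on simulated data with known changes, and a pass was required only at noise far below that of these data. They do not show how well changes are found at the noise of these data. A simulated table was slipped by the same offsets that were then used to read it back. That run tests the code alone, and it cannot show where the deposited table slips.

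The arrays are technical replicates of 1 sample a line; their number limits the precision. The members, row offsets and gene lists were chosen with earlier results of these data known. Named genes are the 4 members, list genes with 1 sign on every measured array and a mean of at least 1 either way, relatives and partners of the members, and the 3 nearest array profiles of each. Sec31a, Mia3, Sec23a, Creb3l1, Atp7a, Slc31a1, Mep1a, Mep1b, P3h1, Crtap, Ppib, Col3a1, Dcn, Vim, Myh1, Lyz2 and the genes of lowest mean were added after their values were seen.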

Additional observations from a re-analysis of the deposited data

How the results depend on the processing

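Each ratio pairs both lines within an array, so the fits are paired in that sense. No paired analysis was possible beyond this, because there is 1 group of arrays and no second group with matching numbers. Limma called 0 genes under all 18 alternatives, with a smallest adjusted p between 0.0609 (probes fitted singly) and 0.61 (array 2 left out). Of 75 values of the 4 genes under alternatives, 74 kept the sign of the mean, which does not require 1 sign on every array. Many of these values could not change. Leaving out the dye term, the robust prior and the limit to genes on all 4 arrays leave each mean as it is. The row, offset and cap settings leave Pcolce and Serpinh1 as they are, since all their probes lie in the first 6000 rows. The tally is therefore no measure of robustness. The 2-fold size with 1 sign was lost for Lox in 2 of 19 alternatives (offset 1 row higher and capped ratios kept) and for Pcolce in 1 of 19 (probe 1492 alone), and Serpinh1 reached it in 3 of 18 (probe 3791 alone, probes of at least 3 arrays, and array 2 left out). The exception in sign was Loxl1 with every probe on its own, where probe 12627 gave 0.36. The probes of Loxl1 disagree. Probes with values on fewer than 3 arrays were not fitted singly and are not in the tally. Among them, Serpinh1 probe 2034 (mean 0.79, n = 2 arrays) and Lox probe 20301 (0.38, n = 1) were also above 0. Genes past 2-fold with 1 sign numbered 687 of 8131 tested. In the first 6000 rows alone they numbered 366 of 3267, a larger share, and 6 of the 9 probes of the 4 genes lie there. The shares given beside the 4 genes are over all genes and not over these rows. Leaving out 1 array gave 616 to 790.

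Lox had -2.31 with all rows as deposited, -2.44 and -3.31 with the offset 1 row higher or lower, where probe 18433 is read from other spots, and -3.29 with capped ratios kept. Loxl1 had -1.30 in the first 6000 rows alone, where probe 12627 is left out, -0.75 with all rows as deposited and -0.31 with the offset 1 row lower. Without 1 array Lox ranged from -5.64 to -4.93, Pcolce from -1.63 to -1.20, Serpinh1 from -1.10 to -0.54 and Loxl1 from -0.67 to -0.22. Serpinh1 stood at -0.54 without array 3, and Loxl1 at -0.22 without array 4. Only the use of probes with at least 3 arrays was added after the data were seen. The count of arrays, 4 of 1 sample a line, limits all of these values.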

Other observations

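The lower end of the gene means, looked up after the values were seen, holds Lox among genes of several kinds. Besides matrix genes, the 10 lowest means included Naprt, which encodes an enzyme of NAD synthesis, at -5.39 ± 0.54 (n = 3). Atoh8, a transcription factor gene, had -4.75 ± 0.27 (n = 3) and Fgf7, which encodes a growth factor that fibroblasts make for epithelial cells, had -4.01 ± 0.56 (n = 3). Rgs2, a regulator of G protein signalling and the second nearest profile to Lox, had -2.34, -4.74, -4.28 and -4.22 on arrays 1 to 4, a mean of -3.90 ± 1.06. Limma's adjusted p was 0.23 for Naprt, 0.25 for Atoh8, 0.28 for Fgf7 and 0.27 for Rgs2. In genes on 3 arrays limma tests a mean fitted with the dye term, which differs from the plain mean. It was -5.24 for Naprt, -4.71 for Atoh8 and -3.86 for Fgf7.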
